A study of Mus musculus with 24 samples.

Results

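Oligodendrocytes exposed to 10 mM ethanol, the moderate of the study's concentrations, were compared with the controls of the same experiment. The members were the 12 wells of experiment 2, taken from 24 wells in all: 6 wells with 10 mM ethanol and 6 control wells without it. The cells came from the cortices of C57BL/6J pups aged 5 to 7 days and were selected with magnetic beads carrying an antibody to O4, an antigen of immature oligodendrocytes. They grew on coverslips coated with poly-D-lysine and laminin, were differentiated for 3 days chiefly with the thyroid hormone T3, and then spent 3 days with or without ethanol, so the controls share the sort, the coating and the hormone. Ethanol wells stood in an incubator that also held a beaker of ethanol, with the concentration checked each day, and control plates stood in another incubator. Ethanol and incubator therefore cannot be told apart. All 12 wells carry the label batch 2. The labels call the wells biological replicates, but nothing says that they came from separate animals or cultures, so p-values measure the spread between these wells.

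Oligodendrocytes wrap axons in myelin, a stack of membrane that is rich in cholesterol and in a small set of proteins such as Mag and Cnp. Making that membrane loads the endoplasmic reticulum, where chaperones such as Hspa5 (BiP) fold secreted and membrane proteins, and the cell adjusts chaperone supply through the unfolded protein response, which acts on promoters holding the endoplasmic reticulum stress element. Immediate early genes such as Egr1 and Fos are switched on within minutes of a stimulus, without new protein synthesis, and most code for transcription factors. Ethanol is oxidised to acetaldehyde and then acetate, by alcohol dehydrogenases, the cytochrome Cyp2e1 and catalase in the first step and by aldehyde dehydrogenases such as Aldh2 in the second.

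The assay was 3′ tag sequencing, which samples each transcript near its 3′ end, so that long and short transcripts are counted alike. Totals were 1248730 to 1520724 counts in the control wells and 1184609 to 1729704 at 10 mM. Levels are given as CPM (the count of a gene scaled to the normalised library size), and 3 counts, taken as the floor, correspond to 1.73 to 2.53 CPM. Floors cover counting error only. Mitochondrial genes held 2.06% to 2.39% of the control counts and 1.81% to 2.37% of those at 10 mM. The genes mt-Co2, mt-Co3, mt-Atp8 and mt-Nd4l had no counts in any well, so this share does not cover the whole mitochondrial genome. The labelled cell type was checked against its markers: Mbp, the myelin basic protein gene, stood at 2193 to 2936 CPM in the controls, but Gfap, an astrocyte marker, stood at 1830.0 to 2027 CPM beside it, and 13 of 15 microglia markers passed the filter on low counts. The wells therefore held RNA of other glia too, and in such bulk samples fewer cells of a type and less RNA per cell cannot be told apart. Summed over the list, astrocyte markers reached 4874 to 5194 CPM in the controls and 4753 to 5458 CPM at 10 mM, and microglia markers 3470 to 4080 and 3674 to 4351 CPM. Both sums overlapped between the groups. Of 12 neuron markers 8 passed the filter, with a summed level of 696 to 777 CPM in the controls and 751 to 819 CPM at 10 mM, and of 10 endothelial markers 5 passed, with 73.0 to 116 and 80.5 to 95.8 CPM. These sums overlapped too. The neuronal transporter gene Slc17a7 had 18 counts in each group of wells and the endothelial marker Cldn5 had 0 in the controls and 1 at 10 mM.

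Of 13538 genes that passed the low-count filter, 89 (0.657%) had an adjusted p under 0.05 in edgeR's quasi-likelihood test and were called changed. At 10 mM 53 of them were higher (0.391%) and 36 lower (0.266%). The changes were small. The median absolute log2 fold change of the called genes was 0.384, the smallest was 0.206, and 10 genes changed at least 1.5-fold. Only Egr1 and Gata6 reached 2-fold. The median over all tested genes was -0.0023 and 49.3% lay above 0. Scaling of the libraries sets the typical gene near 0, so these values cannot show whether all genes shifted together. All 6 ethanol wells lay on one side of all 6 controls for 114 genes (0.842%), 59 higher (0.436%) and 55 lower (0.406%), and 39 of these were also called. An unadjusted p under 0.05 was reached by 1366 genes (10.1%), 727 higher (5.37%) and 639 lower (4.72%), and these shares are the background against which the gene lists below are read. At 0.657% of genes called, most short lists would hold no called gene, so no call does not show that a list was unchanged. Calls depended on single wells. The count fell to 37 without control replicate 5, 40 without 10 mM replicate 2, 45 without 10 mM replicate 4, 46 without control replicate 6 and 57 without control replicate 4. A set of 27 genes, 21 higher and 6 lower, was called in each of the 12 fits that left out 1 well.

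**Figure D1:**
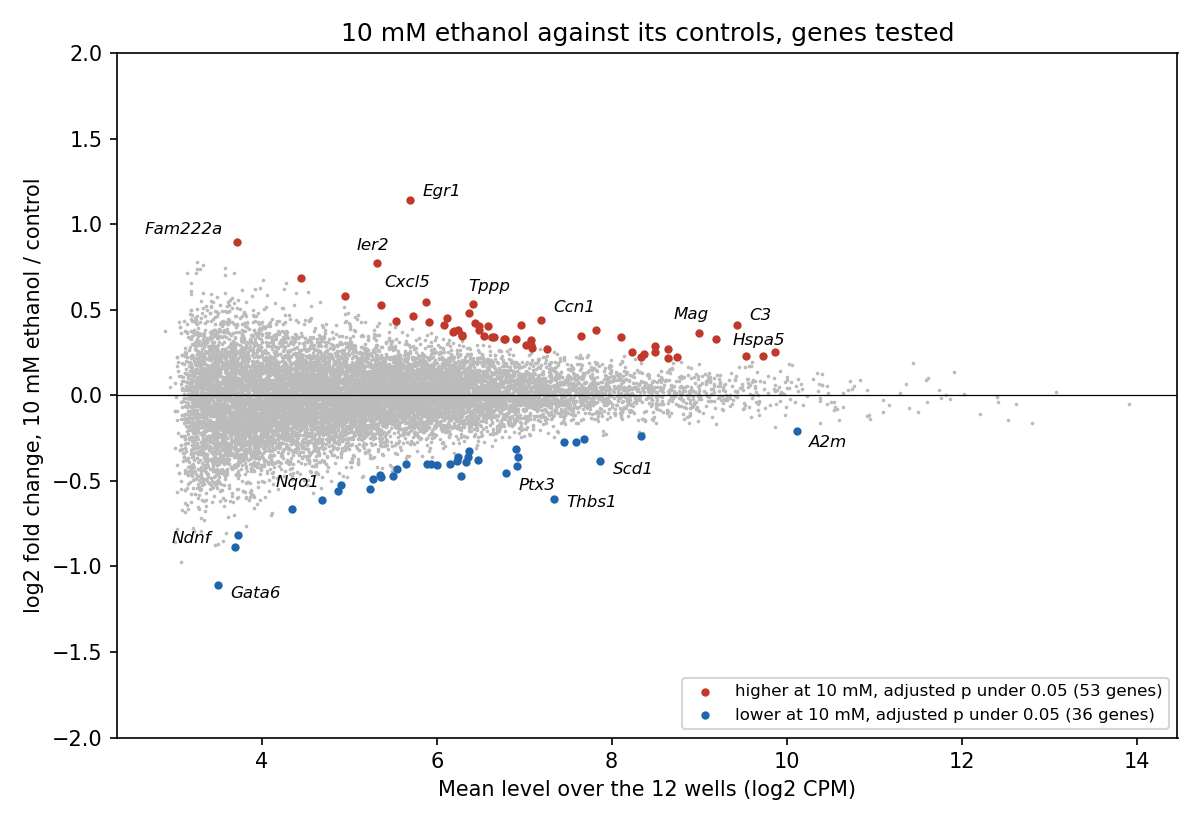
Log2 fold change at 10 mM ethanol over control (vertical axis) against the mean level over the 12 wells in log2 CPM (horizontal axis), 1 point per tested gene. Red points are the 53 genes called higher and blue points the 36 called lower; Egr1 and Gata6 are the called genes farthest from 0.

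The fold changes were related to base composition. Genes were split into 5 bins of about equal size by the GC content of the last 500 bases of their transcripts. The median log2 fold change increased from bin to bin, from -0.036 in the poorest to 0.043 in the richest. Single wells did not part by group in the richest bin. Their median deviation (log2) was 0.032 in control replicates 1 and 2 and -0.047 to -0.025 in the other controls. It was -0.013 in ethanol replicate 3 and 0.013 to 0.06 in the other ethanol wells. Whether the relation to GC content came from the ethanol or from the single libraries was not tested. Of the 53 genes called higher, 22 lay in the richest bin, against 3 of the 36 called lower. With a correction for GC content, 80 genes were called, 48 higher and 32 lower, and 67 of the 89 were among them. The genes no longer called with it were Ndnf, Col3a1, Igfbp3, Gclc, Insig1, Cyp1b1, Adamts1, Tgfbr1, Slc6a6, Anxa2, Adora1, Bcan, Tubb3, Adcyap1r1, Adam11, Dnajb2, Edf1, Rbm10, Cox7a1, Samd4, Ptar1 and Wbp1.

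Of the immediate early transcription factors, 17 of 26 were tested. In this list 5 were called higher, against 0.391% of all genes, and none was called lower. The median of the list was 0.041 against -0.0023 for all genes. Egr1 (ENSMUSG00000038418), a zinc finger factor induced by growth factor and stress signals, had 25.7, 32.1 and 35.7 CPM as lowest, median and highest of the controls and 63.8, 69.2 and 72.5 CPM at 10 mM. The 6 ethanol wells were all close to each other and far above every control. The log2 fold change was 1.14 (SE 0.108, edgeR adjusted p = 1.5e-12). Of 24 settings, the main fit among them, 23 gave an adjusted p for Egr1, and all 23 called it.

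Ier2 (ENSMUSG00000053560), a nuclear protein of the same fast class, ranged over 25.6 to 32.3 CPM in the controls (median 26.9) and 35.0 to 60.2 CPM at 10 mM (median 47.1). Its ethanol wells formed a lower and an upper trio: replicates 1 to 3 had 35.0, 36.7 and 36.8 CPM, while replicates 4 to 6 had 57.5, 60.2 and 59.3 CPM. All of them lay above the controls, and the log2 fold change was 0.77 (SE 0.134, edgeR adjusted p = 0.000187). Egr1 showed no such parting of the same wells.

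The AP-1 subunits rose less. Junb had 36.8, 44.1 and 49.9 CPM in the controls (lowest, median, highest) and 47.2, 59.3 and 70.1 CPM at 10 mM (log2 fold change 0.46, SE 0.108, edgeR adjusted p = 0.0201). Fos had 57.2, 63.5 and 75.3 CPM against 73.4, 83.9 and 92.3 CPM (log2 fold change 0.38, SE 0.089, edgeR adjusted p = 0.0184), and its highest control, replicate 2, stood above its lowest ethanol well. Jun went from 95.1 to 111 CPM in the controls to 115 to 140.1 CPM at 10 mM with no overlap (log2 fold change 0.33, edgeR adjusted p = 0.0158). Fos kept its call in 9 of the 12 fits that left out a well, Jun in 10 and Junb in 8. Jund, a further subunit, had a log2 fold change of 0.17 and was not called (edgeR adjusted p = 0.311), nor was the stress-induced Atf3 (0.10, edgeR adjusted p = 0.847).

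Several members of the list were too low to test. Fosb had 25 counts over the 6 controls and 41 over the ethanol wells, Nr4a3 had 27 and 37, Egr2 had 36 and 39, and Fosl1 had none in any well. The neuronal activity factor Npas4 had 4 counts in each group.

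Among 16 tested immediate early effectors, the median was 0.132 and 12 lay above 0. Ccn1 (ENSMUSG00000028195), a secreted matrix-associated signalling protein, had 112, 125 and 129 CPM in the controls and 154, 161 and 191 CPM at 10 mM, without overlap (log2 fold change 0.44, SE 0.0714, edgeR adjusted p = 8.15e-05). Zfp36l1, an RNA-binding protein that promotes decay of AU-rich messenger RNAs, rose by a log2 fold change of 0.35, with SE 0.0688 (edgeR adjusted p = 0.00238). Its relative Zfp36 (0.37, edgeR adjusted p = 0.311) and the antiproliferative gene Btg2 (0.30, edgeR adjusted p = 0.241) were not called. Of 11 tested feedback genes of the ERK pathway, only the ERK phosphatase Dusp7 was called (log2 fold change 0.44, edgeR adjusted p = 0.0438), while the median of that list was -0.104. Dusp7 was called in 3 of the 12 fits that left out a well.

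**Figure D2:**
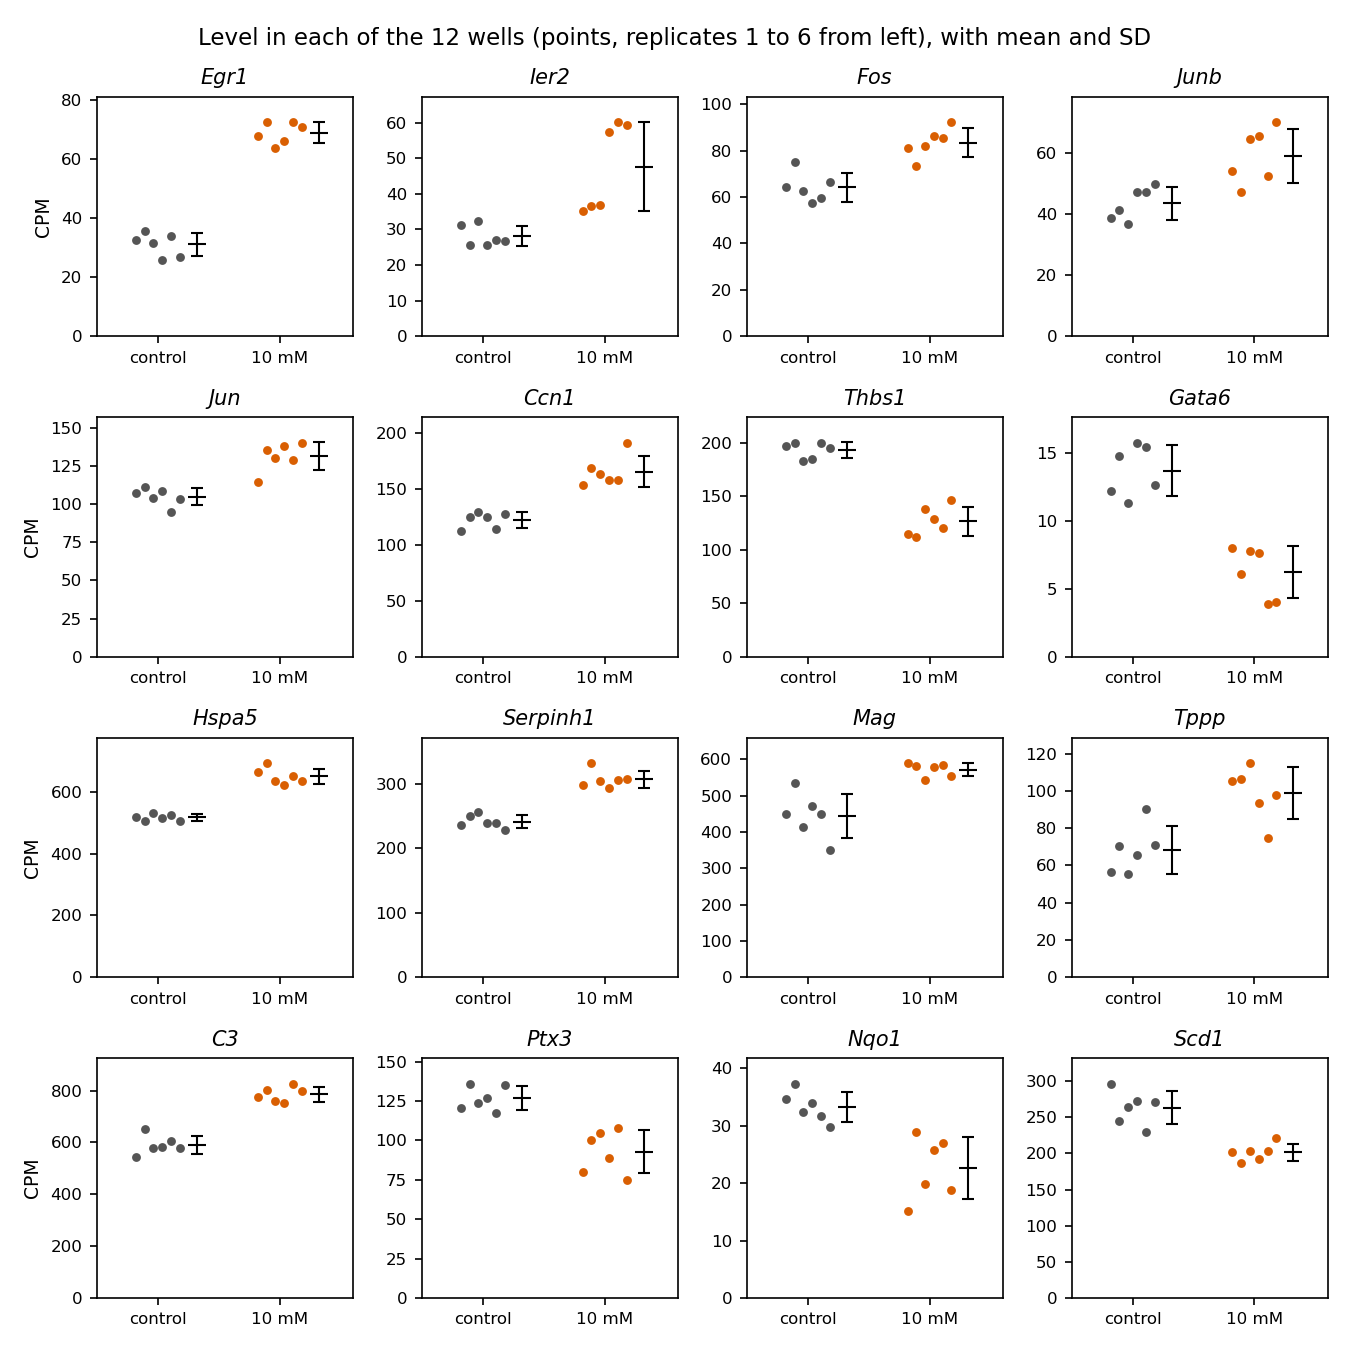
CPM (vertical axis, from 0) of 16 genes in each of the 12 wells, controls in grey and 10 mM in orange, with the mean and SD of 6 wells beside each group. The ethanol wells of Egr1, Hspa5, C3 and Serpinh1 lie above all controls, those of Thbs1, Gata6, Ptx3, Nqo1 and Scd1 below them, and those of Ier2 fall into a lower and an upper trio.

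Of 19 tested chaperones of the endoplasmic reticulum, 18 had a log2 fold change above 0 and the median was 0.171. Of these chaperones, 3 were called higher, against 0.391% of all genes, and 8 had an unadjusted p under 0.05, all higher, against 5.37%. For 5 members every ethanol well exceeded every control, against 0.436% of all genes. The promoters of these genes are shown because 7 of the 16 that matched the RefSeq promoter table (43.8%) hold the endoplasmic reticulum stress element, searched on both strands as CCAAT and CCACG with any 9 bases between them. Over all 27025 promoters of 300 bases in the table (build GRCm38.p6), 34 held it (0.126%). A match is a description of the sequence and no measurement of binding in these wells. Each line below gives the strand of the gene and reads along it 5′ to 3′, with the element in capitals and 5 bases on each side in lower case; in the promoters of Calr and Creld2 and the second one of Hsp90b1 the element runs in the opposite orientation, so that the capitals begin with the complement of CCACG.
Hspa5, chr2:34772020-34772048, plus strand: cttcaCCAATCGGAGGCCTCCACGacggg
Hsp90b1, chr10:86705633-86705661, minus strand: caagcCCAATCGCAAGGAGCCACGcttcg
Hsp90b1, chr10:86705528-86705556, minus strand: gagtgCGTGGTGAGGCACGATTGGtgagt
Calr, chr8:84847070-84847098, minus strand: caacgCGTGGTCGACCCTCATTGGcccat
Canx, chr11:50325795-50325823, minus strand: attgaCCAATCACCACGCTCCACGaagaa
Pdia6, chr12:17266486-17266514, plus strand: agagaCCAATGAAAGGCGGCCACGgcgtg
Dnajc3, chr14:118937822-118937850, plus strand: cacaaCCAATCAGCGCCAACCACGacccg
Creld2, chr15:88819515-88819543, plus strand: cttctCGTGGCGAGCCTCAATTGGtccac

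The Hspa5 element lies nearest to its start, from -65 to -47 counted from the base before the start as -1. The 250 bases upstream of Hspa5 (chr2:34771840-34772089, plus strand) are given because that gene had the smallest adjusted p of the list, with the same element in capitals.
Hspa5 upstream: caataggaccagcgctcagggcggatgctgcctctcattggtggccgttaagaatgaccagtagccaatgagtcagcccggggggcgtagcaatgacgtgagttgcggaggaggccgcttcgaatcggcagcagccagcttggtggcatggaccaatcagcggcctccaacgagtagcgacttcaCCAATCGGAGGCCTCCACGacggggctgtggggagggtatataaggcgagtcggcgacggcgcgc

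Hspa5 (ENSMUSG00000026864), the main Hsp70 chaperone of this compartment, had 506, 517 and 532 CPM as lowest, median and highest of the controls and 623, 644 and 692 CPM at 10 mM. The gap between the groups was wider than the range of either, and the log2 fold change was 0.33 (SE 0.0514, edgeR adjusted p = 3.97e-05). Hsp90b1 (GRP94), the Hsp90 form of the same compartment, had 627, 684 and 715 CPM against 738, 809 and 837 CPM, again without overlap (log2 fold change 0.23, SE 0.0512, edgeR adjusted p = 0.0117). Sdf2l1, a partner of the Hspa5 cochaperones, rose from a control median of 56.5 to 75.6 CPM (log2 fold change 0.45, SE 0.0988, edgeR adjusted p = 0.00963), and only ethanol replicate 5, at 62.5 CPM, fell inside the control range, which ended at 64.7 CPM.

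Below the threshold the same side held. The disulfide isomerase Pdia3 had 175 to 206 CPM in the controls and 213 to 258 CPM at 10 mM without overlap, but an edgeR adjusted p of 0.0565. Pdia6 had a log2 fold change of 0.22 and Pdia4 of 0.17, both also without overlap, with edgeR adjusted p of 0.0886 and 0.215. Manf, a secreted stress-induced factor, had 0.27 (edgeR adjusted p = 0.0603) and the calcium-binding lectin chaperone Calr 0.18 (edgeR adjusted p = 0.108). Of the 3 called chaperones, Hspa5 and Hsp90b1 hold the promoter element, and Sdf2l1 matched the table without one. Calr, Canx, Creld2, Dnajc3 and Pdia6 hold it and were not called, with Canx at 0.08 (edgeR adjusted p = 0.677) and Dnajc3 at 0.03 (edgeR adjusted p = 0.925). Pdia3 matched the table without an element and was not called either. Whether the element played a part in the changes was not tested.

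Regulators of the unfolded protein response gave no call, as would most lists of that length with 0.657% of all genes called. None of 15 tested regulators was called, their median was 0.077, and the transcription factor Xbp1 had a log2 fold change of 0.12 (edgeR adjusted p = 0.778). In the integrated stress response, none of 22 tested genes was called, with a median of -0.021. Its transcription factor Atf4 had 297 to 322 CPM in the controls and 257 to 312 CPM at 10 mM (log2 fold change -0.09, edgeR adjusted p = 0.618), and Ddit3, the factor known as CHOP, had -0.02 (edgeR adjusted p = 0.975).

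Heat shock proteins, cytosolic and mitochondrial ones together with Serpinh1, had a median of 0.120, with 15 of 18 tested members above 0. An unadjusted p under 0.05 was reached by 9, all higher, against 5.37% of all genes. No cytosolic or mitochondrial member was called. The called member was Serpinh1 (ENSMUSG00000070436), also named Hsp47, a heat shock protein that works in the endoplasmic reticulum as the chaperone of collagen. It had 228, 239.6 and 256 CPM in the controls and 293, 306 and 332 CPM at 10 mM, without overlap (log2 fold change 0.34, SE 0.0585, edgeR adjusted p = 0.000185). The cytosolic chaperones Hsp90aa1 (0.18, edgeR adjusted p = 0.0886), Hspa8 (0.17, edgeR adjusted p = 0.213) and Hsph1 (0.27, edgeR adjusted p = 0.179) were not called. The inducible Hsp70 genes Hspa1a and Hspa1b were too low to test, with 22 and 21 counts over the controls and 32 and 20 over the ethanol wells. P4ha1, which hydroxylates collagen proline in the same compartment as Serpinh1 and was listed with the hypoxia genes, rose by 0.38 (SE 0.0881, edgeR adjusted p = 0.0171).

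**Figure D3:**
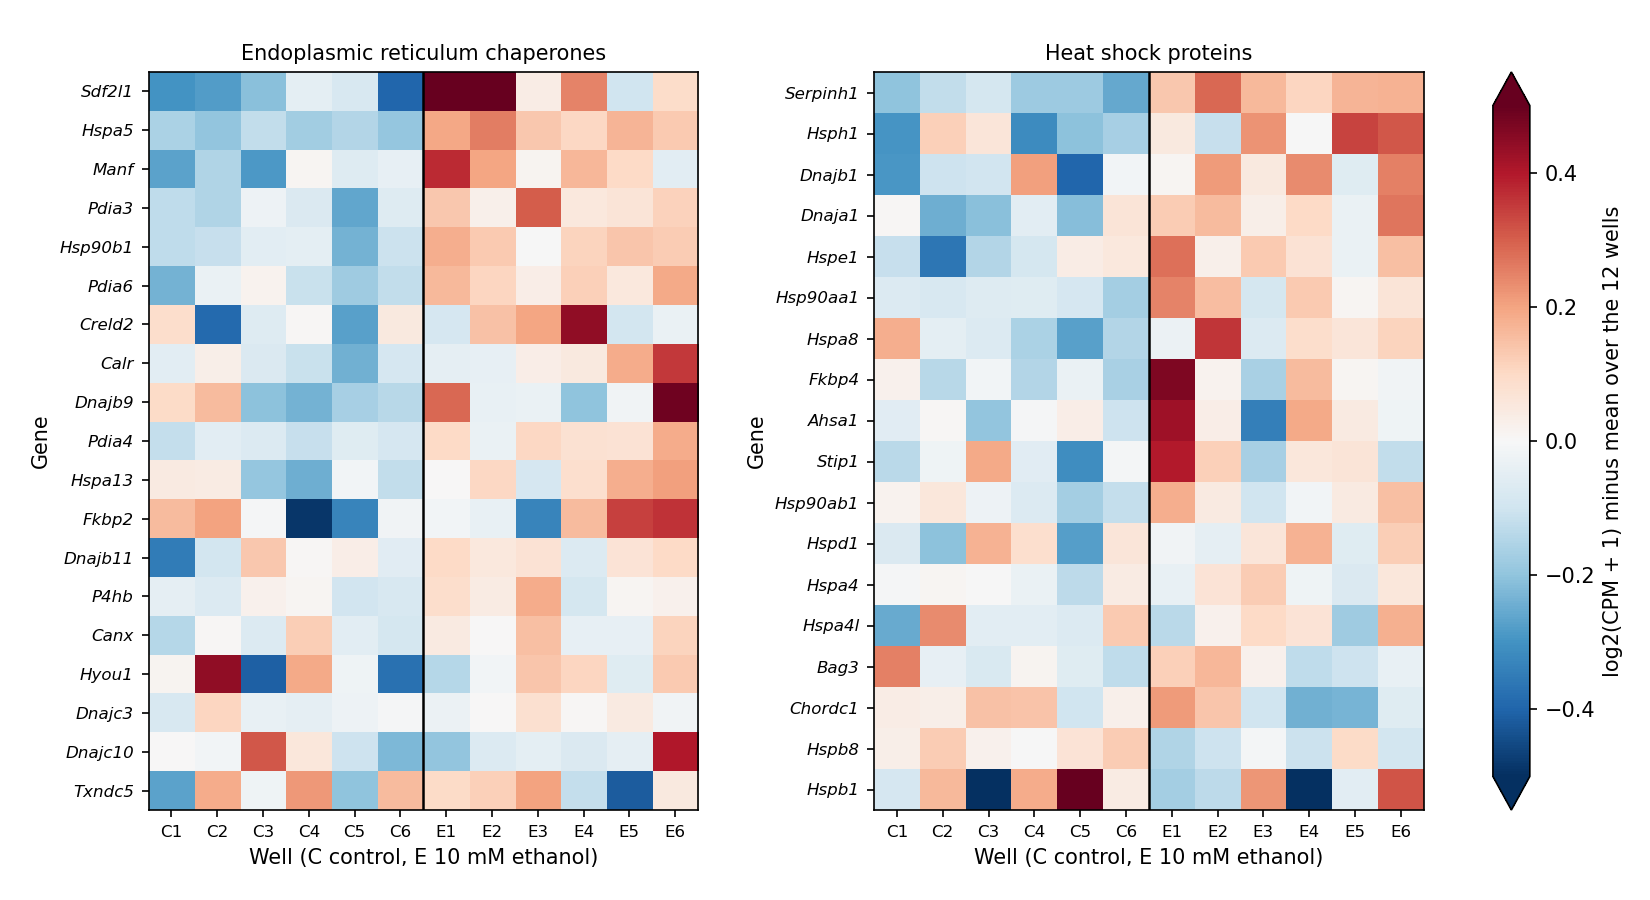
Heat map of log2(CPM + 1) minus the mean over the 12 wells, for the 19 tested endoplasmic reticulum chaperones (left) and the 18 tested heat shock proteins (right), genes ordered by fold change and columns being control wells C1 to C6 and ethanol wells E1 to E6. Red is above the mean and blue below, with colours ending at 0.5 in either direction; Hspa5 and Serpinh1 are red in all 6 ethanol wells and blue in all 6 controls.

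Of 23 tested genes of the myelin sheath, 5 were called higher, against 0.391% of all genes, and the median was 0.172. An unadjusted p under 0.05 was reached by 12, all higher, against 5.37% of all genes. The summed level of the list was 9466 to 11650 CPM in the controls and 11140 to 12340 CPM at 10 mM, so the sums overlapped. Mag (ENSMUSG00000036634), an adhesion protein of the myelin layer that faces the axon, had 351, 449 and 534 CPM in the controls and 542, 580.5 and 589 CPM at 10 mM, without overlap (log2 fold change 0.36, SE 0.0594, edgeR adjusted p = 8.45e-05). Its ethanol wells were much tighter than its controls, with SD 18.8 and 60.7 CPM. Mal, a proteolipid that sorts cargo to the myelin membrane, had 168, 193 and 221 CPM against 240.2, 248 and 277 CPM, also without overlap (0.38, SE 0.0649, edgeR adjusted p = 0.000185).

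Cnp, an enzyme that keeps cytoplasmic channels in myelin open, rose by 0.25 (SE 0.0513, edgeR adjusted p = 0.0038), and the membrane protein Cmtm5 by 0.42 (SE 0.089, edgeR adjusted p = 0.00522). Tppp, which nucleates microtubules in oligodendrocyte processes, had 55.6, 68.1 and 90.4 CPM in the controls and 74.9, 101 and 115 CPM at 10 mM. Its log2 fold change, 0.53 (SE 0.0954, edgeR adjusted p = 0.000361), was the largest of the list although the wells overlapped. The tetraspanin Tspan2 (0.25), the tight junction gene Cldn11 (0.17) and Mobp (0.17) had an unadjusted p under 0.05 and were not called. The abundant Mbp had a median of 2532 CPM in the controls and 2700.0 CPM at 10 mM (log2 fold change 0.07, SE 0.0531, edgeR adjusted p = 0.721), and Mog had 0.15 (edgeR adjusted p = 0.525).

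Genes upstream of the sheath gave no call, the usual outcome for lists this short with 0.657% of all genes called. None of 12 tested oligodendrocyte lineage transcription factors was called (median 0.093), with Myrf, the driver of myelin genes, at 0.10 (edgeR adjusted p = 0.784) and Olig2 at 0.13 (edgeR adjusted p = 0.647). None of 14 tested genes of myelin lipid synthesis was called (median 0.068). Among 16 tested markers of precursors none was called either, the median was -0.011, and Pdgfra, the growth factor receptor of the precursor stage, had 55.6 to 83.7 CPM in the controls and 60.3 to 80.0 CPM at 10 mM. Further called genes that oligodendrocytes are known to express were Sema4d, a membrane semaphorin (0.41, SE 0.0795, edgeR adjusted p = 0.00185, no overlap), S1pr5, a receptor for sphingosine 1-phosphate (0.68, SE 0.168, edgeR adjusted p = 0.0291), and Aplp1, a relative of the amyloid precursor protein (0.29, SE 0.0606, edgeR adjusted p = 0.00616). Sema4d rose from 76.5 to 85.4 CPM in the controls to 101 to 115 CPM at 10 mM.

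Genes of the cytoskeleton of processes were mixed. Of 21 tested tubulin and microtubule genes, Tppp, Stmn4 and Mapt were called higher and none lower, with a median of 0.020. Stmn4, a tubulin-binding stathmin, had 42.4 to 67.5 CPM in the controls and 70.1 to 84.4 CPM at 10 mM, without overlap (log2 fold change 0.41, edgeR adjusted p = 0.0198). Mapt, which codes for tau, had 240.5 to 299 against 307 to 358 CPM (0.26, edgeR adjusted p = 0.0213). In the list of neuronal markers, Tubb3 rose by 0.24 (edgeR adjusted p = 0.026) while Stmn2 fell by 0.40 (edgeR adjusted p = 0.0291), so members of that list moved apart. Tubb3 was called in 7 and Stmn2 in 5 of the 12 fits that left out a well. The RNA-binding protein gene Elavl3 rose from a control median of 353 to 435 CPM (0.27, SE 0.0554, edgeR adjusted p = 0.00386). Macf1, a crosslinker of microtubules and actin, fell by 0.27 (edgeR adjusted p = 0.0291). The kinase anchoring protein Akap12 had 122 to 148 CPM in the controls and 94.0 to 109 CPM at 10 mM, without overlap (-0.41, SE 0.0744, edgeR adjusted p = 0.000401). Of the 12 fits that left out a well, Macf1 was called in 4, Mapt in 8, Stmn4 in 10 and Akap12 in all 12.

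Several genes of matrix and mesenchymal cells fell. Among fibroblast and pericyte markers, 4 of 17 tested were called, all lower, against 0.266% of all genes. In this list 14 lay below 0 and the median was -0.126. Gata6 (ENSMUSG00000005836), a transcription factor of mesoderm-derived cells, had 11.3, 13.7 and 15.8 CPM in the controls and 3.86, 6.87 and 7.97 CPM at 10 mM, without overlap but close to the floor (log2 fold change -1.11, SE 0.241, edgeR adjusted p = 0.00774). It was called in each of the 12 fits that left out a well. Dcn, a small leucine-rich proteoglycan, had 72.2 to 104 against 61.3 to 75.6 CPM (-0.39, edgeR adjusted p = 0.0184), and the collagen gene Col3a1 75.9 to 137 against 73.9 to 78.6 CPM (-0.38, edgeR adjusted p = 0.0291). The secreted factor Ndnf was just inside the threshold (-0.82, edgeR adjusted p = 0.0498). Of the 12 fits that left out a well, Ndnf was called in 1, Col3a1 in 6 and Dcn in 9. Other markers were not called, among them the fibrillar collagen gene Col1a1 with a log2 fold change of -0.03 (edgeR adjusted p = 0.949). The summed level of the list was 798.7 to 1036 CPM in the controls and 788.6 to 866.3 CPM at 10 mM, with overlap, and its part in the results was not tested.

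None of 8 tested contractile proteins of smooth muscle was called, but their median was -0.27, the lowest of all lists. Calponin, Cnn1, had 12.4 to 20.4 CPM in the controls and 6.95 to 11.7 CPM at 10 mM, without overlap, with an edgeR adjusted p of 0.065, and Acta2 overlapped (-0.18, edgeR adjusted p = 0.786). Of 20 tested collagens, Col3a1 was lower and Col20a1 higher (0.37, edgeR adjusted p = 0.0341). Bcan, which codes for the brain proteoglycan brevican, rose by 0.23 (edgeR adjusted p = 0.0416). Of 19 tested annexins, S100 proteins and galectins, the calcium-dependent membrane binder Anxa2 was called (0.27, edgeR adjusted p = 0.0455), and the median of that list was -0.005. Of the 12 fits that left out a well, Anxa2 was called in 3, and Col20a1 and Bcan each in 5.

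Of 21 tested targets of the YAP coactivator, Ccn1 rose and 2 fell, with a median of -0.078. Thbs1 (ENSMUSG00000040152), a secreted thrombospondin, had 183, 196 and 200.2 CPM in the controls and 112, 124 and 146 CPM at 10 mM, without overlap (log2 fold change -0.60, SE 0.0697, edgeR adjusted p = 3.8e-09). It had the second smallest adjusted p of all genes, after Egr1. Igfbp3, a binding protein of insulin-like growth factors, had 299 to 405 against 269 to 336 CPM (-0.24, edgeR adjusted p = 0.0416). Ccn2, a close relative of Ccn1 and another YAP target, had -0.08 (edgeR adjusted p = 0.889). Secreted proteases and a growth factor were also among the lower genes: the stromelysin Mmp3 fell by 0.47 (SE 0.0945, edgeR adjusted p = 0.00302), Adamts1 by 0.36 (edgeR adjusted p = 0.0301) and the epidermal growth factor receptor ligand Hbegf by 0.36 (SE 0.0794, edgeR adjusted p = 0.00942). Tgfbr1, a receptor of transforming growth factor beta, fell by 0.40 (edgeR adjusted p = 0.0416). None of 14 tested genes of the response to that factor was called, with 0.657% of all genes called. Of the 12 fits that left out a well, Tgfbr1 was called in 1, Igfbp3 in 3, Adamts1 in 5, Hbegf in 11 and Mmp3 in all 12.

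**Figure D4:**
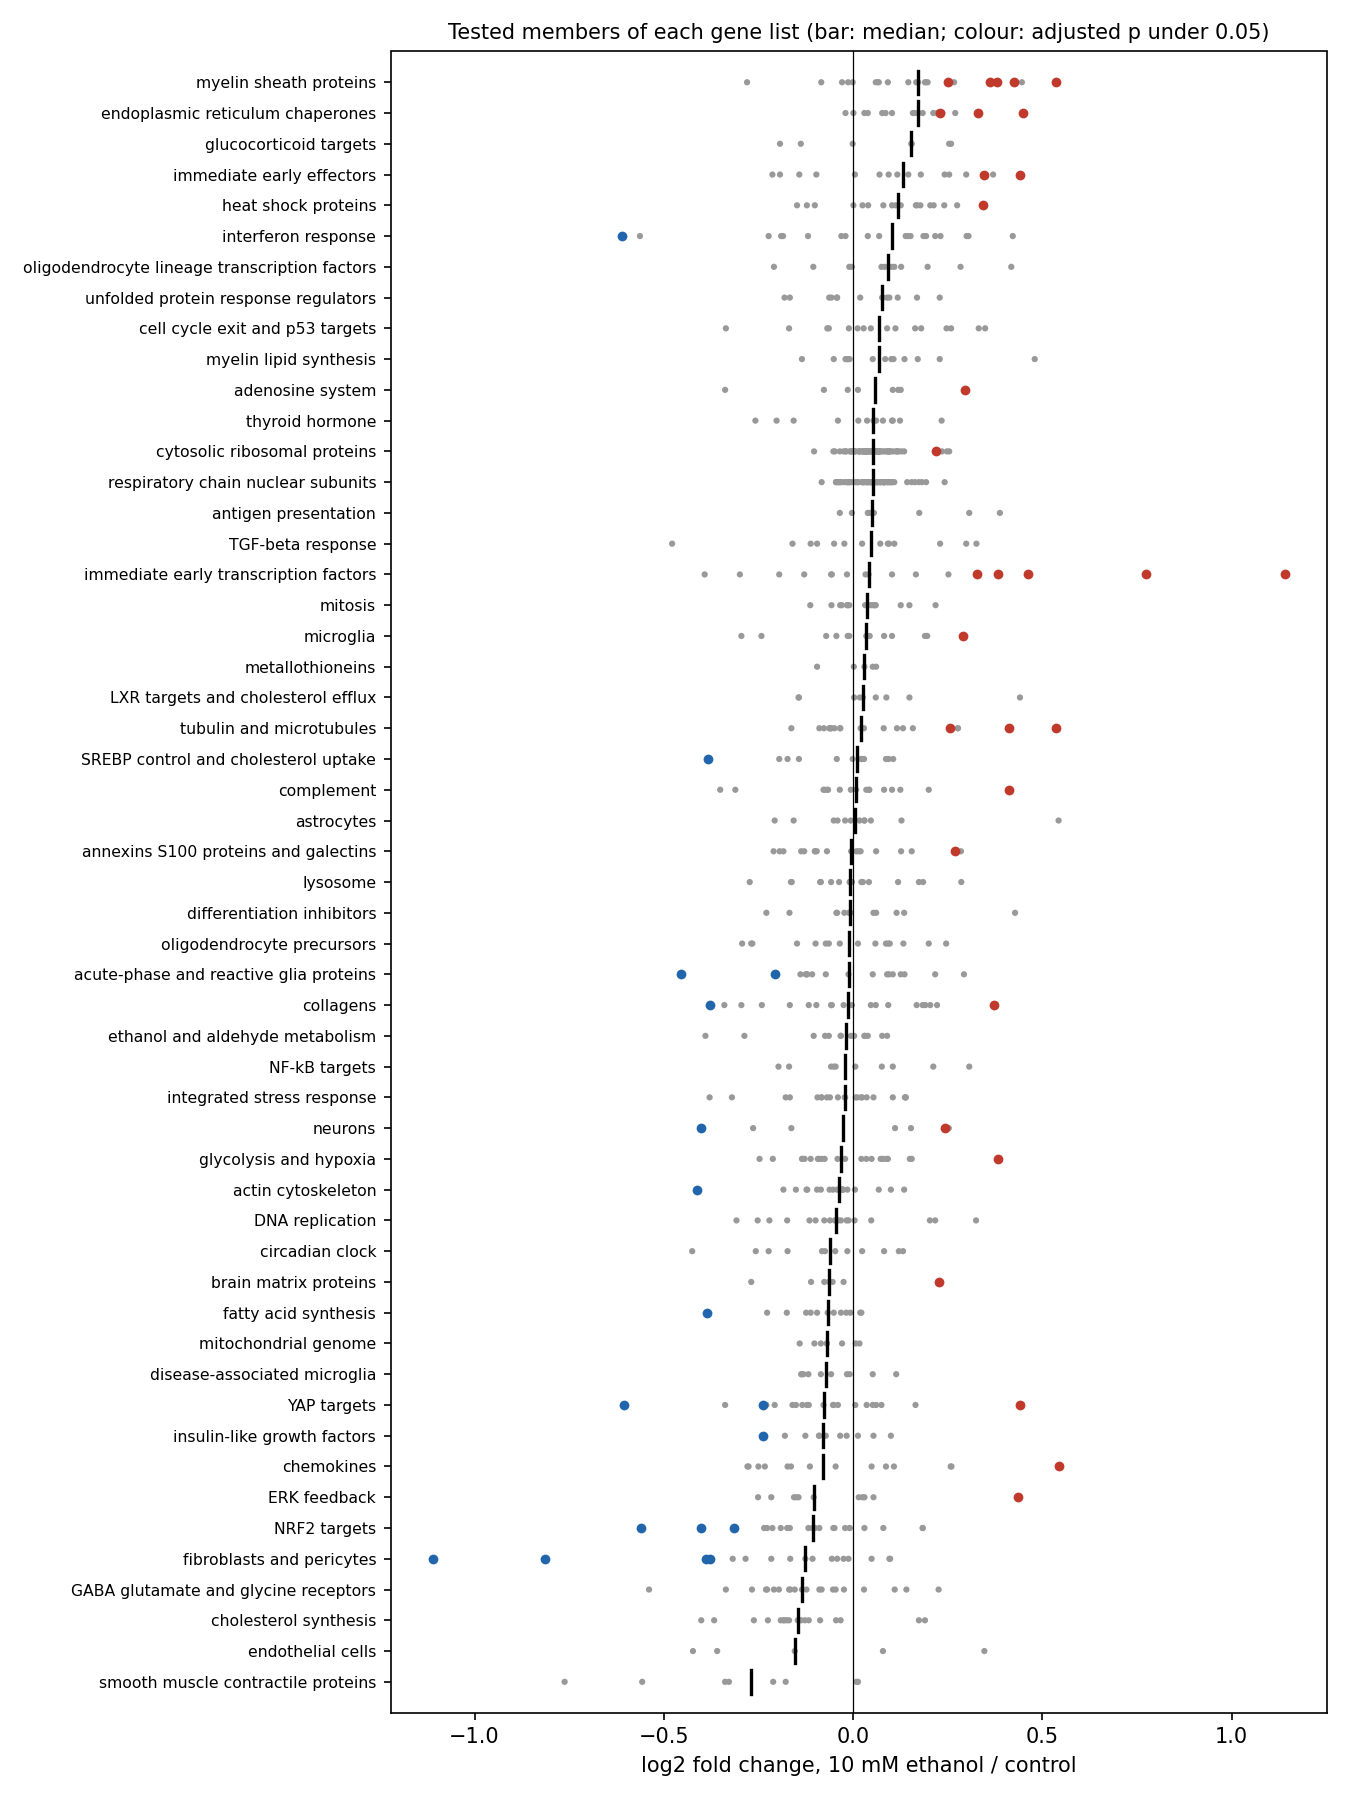
Log2 fold change at 10 mM over control (horizontal axis) of the tested members of 53 gene lists (rows, ordered by median), with the median as a black bar. Called genes are red when higher and blue when lower and the other members are grey; myelin sheath proteins and endoplasmic reticulum chaperones stand at the top with medians of 0.172 and 0.171.

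Of 19 tested genes of cholesterol synthesis, 17 had a log2 fold change below 0 and the median was -0.146. An unadjusted p under 0.05 was reached by 5, all lower, against 4.72% of all genes, but none was called. The synthase gene Hmgcs1 had 212 to 292 CPM in the controls and 211 to 270.0 CPM at 10 mM (-0.14, edgeR adjusted p = 0.487), and the epoxidase gene Sqle had -0.18 (edgeR adjusted p = 0.342). Insig1, which holds the SREBP transcription factors in the endoplasmic reticulum and is itself their target, fell by 0.38 (SE 0.0979, edgeR adjusted p = 0.0383). Insig1 was called in 5 of the 12 fits that left out a well. Among 13 tested genes of fatty acid synthesis, Scd1 (ENSMUSG00000037071), the desaturase that makes oleate, had 229.6, 268 and 296 CPM in the controls and 187, 202 and 222 CPM at 10 mM, without overlap (-0.39, SE 0.0636, edgeR adjusted p = 8.88e-05). The SREBP factor gene Srebf2 itself had a control mean of 158 CPM and the same mean at 10 mM.

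Of 23 tested targets of the antioxidant regulator NRF2, 3 were called, all lower, against 0.266% of all genes. In this list 19 lay below 0 and the median was -0.107. Nqo1, a quinone reductase, had 29.8, 33.2 and 37.2 CPM in the controls and 15.1, 22.8 and 28.8 CPM at 10 mM (log2 fold change -0.56, SE 0.143, edgeR adjusted p = 0.0383). Hmox1, the inducible heme oxygenase, had 122, 131 and 141 CPM against 94.2, 107 and 111 CPM (-0.31, SE 0.0746, edgeR adjusted p = 0.0221). Neither gene's groups overlapped. Gclc, the catalytic subunit of the first enzyme of glutathione synthesis, fell by 0.40 (edgeR adjusted p = 0.0383), and its partner Gclm had -0.19 (edgeR adjusted p = 0.31). These calls lay close to the threshold. Of the 12 fits that left out a well, Nqo1 was called in 3, Gclc in 3 and Hmox1 in 7. Over all settings the log2 fold change was -0.625 to -0.475 for Nqo1, -0.457 to -0.317 for Gclc and -0.333 to -0.283 for Hmox1. Srxn1, another target, had 0.03 (edgeR adjusted p = 0.941).

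Of 17 tested complement genes only C3 (ENSMUSG00000024164), the central component of the cascade, was called, with 543, 581 and 652 CPM in the controls and 752, 787 and 825 CPM at 10 mM, without overlap (log2 fold change 0.41, SE 0.052, edgeR adjusted p = 6.2e-08). Of 14 tested chemokines, Cxcl5 was called (0.54, SE 0.111, edgeR adjusted p = 0.00366), with 33.4 to 62.6 CPM in the controls and 61.0 to 79.5 CPM at 10 mM. The pentraxin Ptx3 had 118, 125 and 136 CPM against 74.8, 94.8 and 108 CPM, without overlap (-0.45, SE 0.0812, edgeR adjusted p = 0.000361). A2m, a protease inhibitor, had 1101 to 1228 against 996 to 1089 CPM (-0.21, SE 0.0493, edgeR adjusted p = 0.0242), and it was lower in all 6 wells. The interferon-induced membrane protein Ifitm1 fell by 0.61 (SE 0.151, edgeR adjusted p = 0.0301), while the median of the 20 tested interferon genes was 0.104. Ifitm1 was called in 5 of the 12 fits that left out a well. None of 10 tested NF-kB targets was called, and Tnf, Il1b and Ptgs2 were too low to test, with 26, 2 and 20 counts over the controls.

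Among genes of microglia, the resident macrophages of the brain, the fractalkine receptor Cx3cr1 had 97.8, 122 and 133 CPM in the controls and 137, 147 and 156 CPM at 10 mM (log2 fold change 0.29, SE 0.0737, edgeR adjusted p = 0.0357). Fcrls, another gene of these cells, rose by 0.35 (SE 0.0921, edgeR adjusted p = 0.0417), while Cd84, a receptor of white blood cells, fell by 0.40 (SE 0.0924, edgeR adjusted p = 0.0175). Of the 12 fits that left out a well, Cx3cr1 was called in 5, Fcrls in 4 and Cd84 in 8. The other microglia markers were not called, among them Csf1r (0.04, edgeR adjusted p = 0.922) and Itgam (-0.24, edgeR adjusted p = 0.425). None of 12 tested astrocyte markers was called, and Gfap had a log2 fold change of 0.03 (edgeR adjusted p = 0.899).

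Genes that handle ethanol itself showed no call, the usual outcome for a list this short with 0.657% of all genes called. Of 14 tested enzymes of ethanol and aldehyde metabolism, 8 lay below 0, the median was -0.019 and 1 had an unadjusted p under 0.05, the cytosolic dehydrogenase Aldh1a1 (-0.29, SE 0.107, edgeR adjusted p = 0.274). The mitochondrial Aldh2 had 67.2, 92.7 and 109 CPM in the controls and 87.3, 94.2 and 119 CPM at 10 mM (0.08, SE 0.088, edgeR adjusted p = 0.838). Adh5, the class of alcohol dehydrogenase found in most tissues, had a mean of 158 CPM in each group (-0.01, SE 0.0685, edgeR adjusted p = 0.99). The peroxidatic enzyme catalase, Cat, had -0.06 (SE 0.0938, edgeR adjusted p = 0.883), and Acss2, which turns acetate into acetyl-CoA, had -0.03 (SE 0.144, edgeR adjusted p = 0.967). Cyp2e1 had 3 counts over the 6 controls and 4 over the 6 ethanol wells, and the liver-type Adh1 had 7 and 1, so neither could be tested at this depth.

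None of 21 tested genes of GABA, glutamate and glycine receptors, on which ethanol is known to act, was called. With 0.657% of all genes called, that is the usual outcome for a list this short. Of the 21 genes, 17 lay below 0 and the median was -0.135. An unadjusted p under 0.05 was reached by 3 of them, all lower, against 4.72% of all genes. The AMPA receptor gene Gria2 had 168 to 206 CPM in the controls and 131 to 201 CPM at 10 mM (-0.17, edgeR adjusted p = 0.41), and the NMDA receptor gene Grin1 had -0.54 at 8.29 to 14.3 CPM in the controls (edgeR adjusted p = 0.419). In the adenosine system, Adora1, the A1 receptor gene, rose by 0.30 (edgeR adjusted p = 0.0416). Among other receptors and transporters, Adcyap1r1, the receptor for the peptide PACAP, rose by 0.34 (edgeR adjusted p = 0.0416). Cacna1d, an L-type calcium channel gene (-0.49, edgeR adjusted p = 0.0305), and Slc6a6, a taurine transporter (-0.25, edgeR adjusted p = 0.0436), fell. Slc30a5, a zinc transporter (-0.48, edgeR adjusted p = 0.0351), and Slc20a2, a phosphate transporter (-0.36, edgeR adjusted p = 0.0305), fell too. Of the 12 fits that left out a well, Adora1 and Slc20a2 were each called in 6, Adcyap1r1 in 5, Cacna1d and Slc30a5 each in 4 and Slc6a6 in 3.

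Of 77 tested cytosolic ribosomal protein genes, 66 lay above 0 with a median of 0.053, and Rpl9 was called (0.22, SE 0.0568, edgeR adjusted p = 0.0416). Rpl9 was called in 4 of the 12 fits that left out a well. The list of nuclear genes of the respiratory chain, 69 of them tested, also had a median of 0.053, with none called. Cox7a1, a respiratory chain subunit outside that list, was called (0.38, edgeR adjusted p = 0.0325). The median of 8 tested mitochondrial genes was -0.069, with none called. Counts of genes with near-identical copies are uncertain here. Actg1, Pgk1 and Rpl24, which most cells express strongly, had 36, 26 and 48 counts over the 6 controls, and mt-Co2 and Fen1 had none in any well. No gene was called among 19 tested of DNA replication, 17 of mitosis, 12 of the circadian clock or 7 glucocorticoid targets, and the median of the mitosis list was 0.037.

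Of the 89 called genes, 45 were in a list and 44 in none. Those in none with the largest changes without overlap were Fam222a (0.89, edgeR adjusted p = 0.0291), at 5.43 to 10.8 CPM in the controls and 12.3 to 17.0 CPM at 10 mM, and A230057D06Rik (-0.89, edgeR adjusted p = 0.03). The tetraspanin gene Cd81 (0.23, edgeR adjusted p = 0.00986), Tssc4 (0.41, edgeR adjusted p = 0.000487), Endod1 (0.48, edgeR adjusted p = 0.000833), Shisa4 (0.25, edgeR adjusted p = 0.00942) and the kinase gene Aatk (0.32, edgeR adjusted p = 0.0117) were each called in all 12 fits that left out a well. Others higher at 10 mM were the metalloprotease-like Adam11 (0.58), Tmem151a (0.53), Dnajb2, a J-domain cochaperone (0.43), the deubiquitinase gene Josd2 (0.41), Cox7a1, a respiratory chain subunit (0.38), the splicing regulator Rbm10 (0.35), Ly6e (0.34), the long noncoding RNA gene Pantr1 (0.34), Wbp1 (0.33), 1500015O10Rik (0.33), the MAX partner Mxd4 (0.28) and Edf1 (0.22). Others lower were Gm20033 (-0.66), the G protein subunit gene Gng3 (-0.55), the lysosomal enzyme gene Hgsnat (-0.47), Emp3 (-0.47), Ptar1 (-0.43), the Ras-like Rasl11a (-0.41) and the cytochrome P450 gene Cyp1b1 (-0.27). Of these 19 genes, the ethanol and control wells of Rbm10 and Mxd4 did not overlap, and those of the others did. Just inside the threshold were Ndnf, Samd4 (edgeR adjusted p = 0.0491) and Ppp1r14c (0.0473). Just outside it were Kmt5a (0.0528), Mir6345 (0.0528) and Ddx3x (0.0546).

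The change at 10 mM was last set against that at 30 mM ethanol, which was given in experiment 1 to other cultures, so concentration, experiment and batch cannot be told apart. In a test of the difference between the changes over all 24 wells, 481 of 14655 genes passed (3.28%), and 20 of the 89 genes called at 10 mM were among them. In 13 of the 20 the change at 10 mM was the more positive and in 7 the more negative. Because the 89 were chosen for their change at 10 mM, that count is a description. The count was 17 to 25 in the 24 fits that each left out 1 well. Of the 4 called chaperone genes, Hspa5 and Serpinh1 were on the first side. Hspa5 had a log2 fold change of 0.33 at 10 mM and -0.03 at 30 mM (difference 0.37, edgeR adjusted p = 0.00871), and Serpinh1 had 0.34 and -0.13 (difference 0.48, edgeR adjusted p = 0.000339). The difference did not pass for Hsp90b1 (0.23 and -0.02, edgeR adjusted p of the difference 0.0563) and Sdf2l1 (0.45 and 0.04, edgeR adjusted p of the difference 0.114). Also on the first side were Egr1 (1.14 and 0.45, edgeR adjusted p of the difference 0.0195) and Ier2 (0.77 and 0.02, edgeR adjusted p 0.0251). Hmox1 fell at both, by 0.31 and 1.07 (edgeR adjusted p of the difference 0.000497).

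On the second side were the inflammatory genes C3, Cxcl5, Ptx3 and A2m. C3 was called at both concentrations, with 0.41 at 10 mM and 1.01 at 30 mM (edgeR adjusted p of the difference 9.44e-06). Ptx3 had -0.45 at 10 mM and 0.19 at 30 mM (edgeR adjusted p of the difference 0.000787). The called myelin genes did not pass that test: Mag had 0.36 and 0.59 (difference -0.21, edgeR adjusted p = 0.371) and Tppp 0.53 and 0.59 (difference -0.04, edgeR adjusted p = 0.929). For Thbs1 the changes were -0.60 and -0.88 (edgeR adjusted p of the difference 0.176). Gata6 had -1.11 at 10 mM and 0.39 at 30 mM, where it was not called (edgeR adjusted p = 0.484), and the difference passed (edgeR adjusted p = 0.019).

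**Figure D5:**
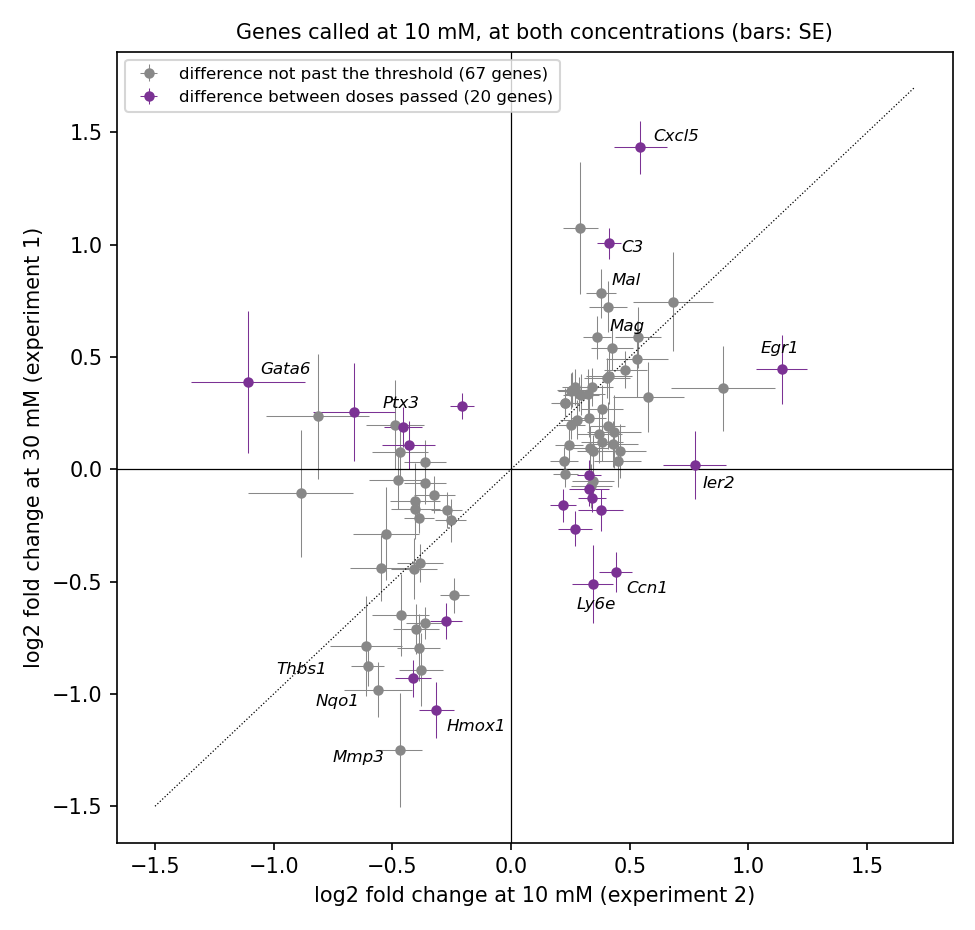
Log2 fold change at 10 mM (horizontal axis, experiment 2) and at 30 mM (vertical axis, experiment 1) of the 87 genes called at 10 mM and tested at both, with SE as bars and the dotted line marking equal changes. Purple points are the 20 genes whose difference passed; Ccn1, Egr1, Ier2 and Ly6e lie below the line and Gata6, C3 and Cxcl5 above it.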

How the data were processed

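The 12 wells of experiment 2 were analysed, grouped by the labels as 6 at 10 mM and 6 controls. For all 24 wells the authors deposited unnormalised counts by gene, with 55359 rows named by Ensembl identifiers; 52083 (94.1%) matched a symbol. Per the submitters' processing notes, cutadapt 1.18, STAR and the build GRCm39 were used, with no role or order given; the counter, the use of strand and any removal of PCR duplicates are not given in the sources used here, so counts of overlapping, antisense and near-identical genes are uncertain. Per the labels' protocols, reads were single-end, 100 bases long, from an Illumina NovaSeq instrument, after Qiagen RNeasy extraction.

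Counts were tested with edgeR 4.0.16 in R 4.3.3 (quasi-likelihood, TMM, filterByExpr with a minimum of 10 counts, Benjamini-Hochberg), on the 12 wells alone, and the difference from 30 mM as an interaction over 24 wells. The biological coefficient of variation was 5.62%. CPM use the TMM library size; per-well values are without a prior. The test was checked on simulated data with known changes. Of genes changed by a log2 fold change of 0.5, 53% were recovered, and of those changed by 1, 93%. False calls made up 5.36% and 7.46% of the calls, and with no change no gene was called. Smaller changes were not simulated, so a gene that was not called may still have changed. No pair of wells of a group agreed within sampling noise in a chi-square test of counts.

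The 53 gene lists (1007 distinct genes) and the comparison were chosen with earlier results of these data known. Named genes were called list members, up to 15 higher and 15 lower called genes without overlapping wells and a mean log2 CPM of at least 3, in each list the 2 most abundant members and those with an unadjusted p under 0.05, 5 ethanol-metabolism genes, and 3 on each side of the threshold; other called genes outside the lists, and list members named for their level or for not being called, were chosen after their values were seen. At least 1 member is not reported here. Promoters and their printed coordinates came from the RefSeq table (GRCm38.p6), another build than that of the counts. No coordinates of whole genes are given, since the annotation used here, GENCODE M21, is also of another build than the counts. Alternatives covered normalization, filter, DESeq2 1.42.0, limma 3.58.1 voom, a joint fit, a replicate block, leaving out wells and, chosen after seeing the data, a GC correction.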

Additional observations from a re-analysis of the deposited data

Results flagged for a closer look

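In 20 of the genes called at 10 mM, the change differed from that at 30 mM in the test of the difference over 24 wells. As log2 fold change at 10 mM minus that at 30 mM, the values below 0 were -1.486 for Gata6, -0.904 for Gm20033, -0.878 for Cxcl5, -0.63 for Ptx3, -0.58 for C3, -0.527 for Ptar1 and -0.475 for A2m. Values above 0 were 0.912 for Ccn1, 0.86 for Ly6e, 0.765 for Hmox1 and for Ier2, 0.709 for Egr1, 0.573 for Cox7a1, 0.546 for Anxa2, 0.529 for Akap12, 0.482 for Serpinh1, 0.426 for 1500015O10Rik, 0.413 for Cyp1b1, 0.391 for Rpl9 and 0.367 for Hspa5. Concentration, experiment and batch cannot be told apart in these values.

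A well stood far from the other 5 of its group in 6 of 184 series of wells, where chance gives about 1 in 20, or 9.2. These were 134.3 CPM of Aatk in control replicate 2, 331.9 of Serpinh1 in 10 mM replicate 2, 104.5 of Slc20a2 in control replicate 4, 219.9 of Slc6a6 in 10 mM replicate 1 and 54.52 of Tmem151a in 10 mM replicate 4, each high, and 34.92 CPM of Slc30a5 in control replicate 2, which was low.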

How the results depend on the processing

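Against the 89 genes called at 10 mM (53 higher, 36 lower), DESeq2 called 58 (46 and 12), of which 48 were among the 89, with no adjusted p for 28 of the 89. The joint fit of 24 wells called 21 (16 and 5), all among the 89, and the fit without 10 mM wells 1 and 2 together called 47, of which 40 were. Leaving out 1 well gave 37 (without control replicate 5) to 95 (without 10 mM replicate 3), and 5 wells took the count under 59. The split into higher and lower also moved with upper quartile scaling (49 and 45) and without a filter (54 and 11 of 36613 genes); the other scalings gave 87 and 99, the stricter filter 86, limma voom 71 and the GC correction 80. The count of 20 genes whose change differed from that at 30 mM ranged from 17 to 25 over fits without 1 well. No value of a named gene changed its sign while called, and the cause of the changes was not tested. The median of the myelin sheath list was 0.156 to 0.2 over 24 settings. Medians that moved by over 1.5 times without turning sign were those of immediate early transcription factors (0.03 to 0.127), ERK feedback (-0.142 to -0.02), interferon response (0.02 to 0.147), YAP targets (-0.117 to -0.048), lineage transcription factors (0.051 to 0.116), myelin lipid synthesis (0.026 to 0.098), ribosomal proteins (0.018 to 0.076) and GABA, glutamate and glycine receptors (-0.178 to -0.071), among the lists whose median is given. Others turned sign in some settings, as for precursors (-0.029 to 0.015), unfolded protein response regulators (-0.008 to 0.1) and mitochondrial genes (-0.118 to 0.026).

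Replicate numbers in the descriptions match between groups, but the titles number the controls otherwise, and same-numbered wells did not deviate together (correlations -0.045 to 0.044; none of 6 wells correlated best with its own number). With the number as a replicate block, 68 genes were called (41 higher, 27 lower), all among the 89. Depth limits the low genes most: the ethanol wells of Gata6 went down to 3.86 CPM, where 3 counts are 1.73 to 2.53 CPM.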
